A study of Homo sapiens with 12 samples.

Results

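Interferon-stimulated genes are genes that cells switch on when type I, type II or type III interferons reach their receptors. A list of 44 such genes was taken by gene name from the count table, and 43 of them have an entry among its 59050 gene names, since OAS1 is not analysed here. Of these 43 genes, 33 (76.7%) had enough counts to be tested, as did 16208 (27.4%) of all gene names. The genes were measured by bulk RNA sequencing in MyLa (MYLA), an established cell line from a cutaneous T cell lymphoma (CTCL). There were 4 groups of 3 libraries, all after 24 h of treatment. The combination group received romidepsin at 3.2 nM with afatinib dimaleate at 5.7 uM, the romidepsin and afatinib groups received 1 of the drugs at the same dose, and the DMSO group received solvent only. All groups had human interleukin-2 at 20 ng/mL in the medium, and the DMSO volume was brought to that of the combination everywhere. The study asked how these drugs act together in this lymphoma. Results from 1 cell line cannot be extended to other lines or to tumours.

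Romidepsin blocks histone deacetylases and so raises histone acetylation, and afatinib is an irreversible inhibitor of ERBB family kinases. Bound interferon receptors activate the kinases JAK1, JAK2 and TYK2, which phosphorylate STAT transcription factors. With IRF9, STAT proteins form a factor that binds the interferon-stimulated response element in front of the target genes, and the gamma-activated sequence is another element that STAT proteins bind. The induced proteins sense foreign RNA and DNA, block viral entry, translation and release, and feed back on the pathway itself. Several of the genes also keep a basal level without interferon.

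The RefSeq promoter windows (GRCh38.p14, 250 bases before to 50 after the start of each gene) covered 34 of the 43 genes. The core of the response element (GAAA, any 2 bases, GAAA, on either strand) was in 23 of these 34 windows (67.6%), against 996 of all 27305 windows (3.65%). The gamma-activated sequence TTCNNNGAA was in 9 of the 34 windows (26.5%), against 2152 of all windows (7.88%). A match describes the letters and is not evidence of binding. The 170 bases before the start are shown for 5 genes with different responses, IFIT3 and IFIT5 with their highest level under afatinib, ISG15 and IFI6 with their highest level under romidepsin, and BST2, which was lower under every treatment than in DMSO. Each sequence runs 5′ to 3′ on the strand of its gene. Capitals mark each core of the response element, or its reverse complement where the core lies on the other strand, and 2 overlapping cores form 1 run of capitals.
IFIT3 (chr10:89327827-89327996, plus strand): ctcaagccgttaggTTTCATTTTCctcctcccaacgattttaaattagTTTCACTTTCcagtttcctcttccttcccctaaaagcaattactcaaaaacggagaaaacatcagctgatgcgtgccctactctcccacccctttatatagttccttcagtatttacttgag
IFIT5 (chr10:89414398-89414567, plus strand): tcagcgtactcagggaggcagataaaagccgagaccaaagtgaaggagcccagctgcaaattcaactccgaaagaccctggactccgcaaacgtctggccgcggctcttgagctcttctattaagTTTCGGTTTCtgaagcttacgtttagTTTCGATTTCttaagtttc
ISG15 (chr1:1013327-1013496, plus strand): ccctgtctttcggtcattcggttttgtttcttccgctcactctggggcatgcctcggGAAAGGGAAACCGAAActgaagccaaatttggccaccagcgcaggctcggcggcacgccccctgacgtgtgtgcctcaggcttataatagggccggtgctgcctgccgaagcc
IFI6 (chr1:27672193-27672362, minus strand): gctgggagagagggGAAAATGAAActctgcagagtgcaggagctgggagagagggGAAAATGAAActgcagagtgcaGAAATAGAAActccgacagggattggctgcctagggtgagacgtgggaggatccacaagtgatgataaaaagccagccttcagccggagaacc
BST2 (chr19:17405631-17405800, minus strand): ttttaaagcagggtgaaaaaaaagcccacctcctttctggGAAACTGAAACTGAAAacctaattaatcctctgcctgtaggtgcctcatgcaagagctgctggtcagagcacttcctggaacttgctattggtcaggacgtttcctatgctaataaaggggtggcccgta
The stretches shown for IFIT3, IFIT5, ISG15 and BST2 each hold 2 cores and that of IFI6 holds 3. The same core thus stood in front of genes that were higher and of a gene that was lower under the drugs. Among tested genes with a window, it was in 11 of 15 that were higher with afatinib, 2 of 4 lower and 3 of 5 not called. With romidepsin it was in 9 of 11 higher, 3 of 4 lower and 4 of 9 not called. In the combination it was in 6 of 8 higher, 4 of 9 lower and 6 of 7 not called. A relation between the core and the direction of change was not tested.

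Libraries held 8972228 to 12696653 counts, so that 3 counts, the limit that a count of 0 allows, corresponded to 0.229 to 0.344 CPM (normalised counts relative to library size), which covers counting error only. No label tells whether the 3 libraries of each treatment are from separate cultures. The p-values therefore reflect only how far these libraries vary, and that may be technical. In bulk RNA, fewer cells of a type and less RNA per cell cannot be told apart. The summed level of 13 T cell markers was 526 to 536 CPM in the combination and 859 to 884 with romidepsin. It was 1320 to 1360 with afatinib and 1820 to 1920 in DMSO. IL2RA and GATA3 made up most of this sum. In the combination, romidepsin, afatinib and DMSO, IL2RA averaged 243, 423, 835 and 1220 CPM, and GATA3 213, 319, 249 and 274 CPM. CD3E, CD4, CD5 and CD7 had at most 4, 1, 5 and 2 counts in any library. Of 4 markers of plasmacytoid dendritic cells, the main interferon-producing blood cells, LILRA4, CLEC4C and IL3RA were at 0 counts, and TCF4 carried a sum of 28.3 to 28.6 CPM in the combination, 54.4 to 58.1 with romidepsin, 127 to 141 with afatinib and 153 to 174 in DMSO. Sums of 5 fibroblast markers were 14.7 to 17.2 CPM in the combination, 26 to 32.5 with romidepsin, 97.5 to 101 with afatinib and 173 to 199 in DMSO, with DCN and LUM at 0. Sums of 5 myeloid markers were 21.4 to 23.3 CPM in the combination, 37.7 to 43.6 with romidepsin, 33.8 to 35.4 with afatinib and 30.7 to 37.1 in DMSO. Sums of 4 B cell markers were 3.51 to 4.06 CPM in the combination, 5.04 to 7.3 with romidepsin, 1.85 to 2.58 with afatinib and 3.5 to 6.16 in DMSO. Sums of 8 keratinocyte markers were 71.3 to 83.4 CPM in the combination and 45.3 to 48.6 with romidepsin. They were 67 to 94.8 with afatinib and 40.6 to 64.9 in DMSO. KRT10 made up most of these sums, with means of 74.3, 45, 75.7 and 41.6 CPM in the combination, romidepsin, afatinib and DMSO. KRT5 stood apart with 43 counts in combination replicate 1 and 126 in afatinib replicate 3. It had 59 in DMSO replicate 1, 94 in DMSO replicate 2 and at most 1 elsewhere. The part of these markers in the results was not tested, but values without the 4 libraries with KRT5 counts are given beside the calls that this refit loses or adds. The refit leaves 1 DMSO library, replicate 3, which is assumed to vary like the libraries of the other groups. DMSO replicate 3 also stood apart within its group, with a chi-square per gene of 6.64 and 8.34 against the other DMSO libraries, which had 3.07 between them. Values without 1 library or under another setting come from refits, and their p-values are edgeR adjusted p-values unless another tool is named.

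The program had a basal level in MyLa cells that was very unequal between genes. In DMSO, the level per exon length was highest for BST2, which encodes tetherin, a protein that holds budding viruses at the cell surface, with 223 ± 17.1 CPM per kb (SD, n = 3 libraries). IFITM1 and IFITM2, which encode membrane proteins that block the fusion of entering viruses, followed with 199 ± 18.1 and 79 ± 9.45 CPM per kb. BST2 and IFITM1 did not differ beyond their spread. ISG15, a ubiquitin-like modifier, came next with 27.4 ± 2.46 CPM per kb, and IFI16, a sensor of DNA, with 19.1 ± 0.687. The other tested genes had 12.1 CPM per kb or less in DMSO, down to 0.0629 ± 0.0282 CPM per kb for EIF2AK2, the kinase PKR that stops translation when it meets double-stranded RNA. Part of the exon length of IFITM1 (37.5%) and of IFITM2 (22.7%) is shared between both genes, and 24.9% of that of IFITM3 lies opposite another gene, so their values are uncertain. The same holds for IRF9 (45.5%), TRIM22 (10.8%) and IFIT2 (10.3%), which overlap other annotated genes.

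The 10 genes that were not tested include some of the best known members of the program. IFI27 and XAF1 had no count in any of the 12 libraries. MX1, a GTPase that traps viral particles, had at most 3 counts in any library, and the highest counts were 2 for HERC5, the ligase that attaches ISG15, 2 for EPSTI1, 5 for CMPK2, 5 for PARP14, 7 for OAS3, 8 for HERC6 and 17 for IFI44L. Several of them lie beside a gene with many more counts. MX1 is 10.9 kb from MX2 on chromosome 21, OAS3 is 5.14 kb from OAS2 on chromosome 12, and CMPK2 overlaps RSAD2 by 830 bases on chromosome 2. Differences between groups were not tested for these 10 genes at this depth. Their promoter windows held the response element core in 7 of 10 cases (70.0%), against 16 of 24 (66.7%) among the tested genes.

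**Figure D1:**
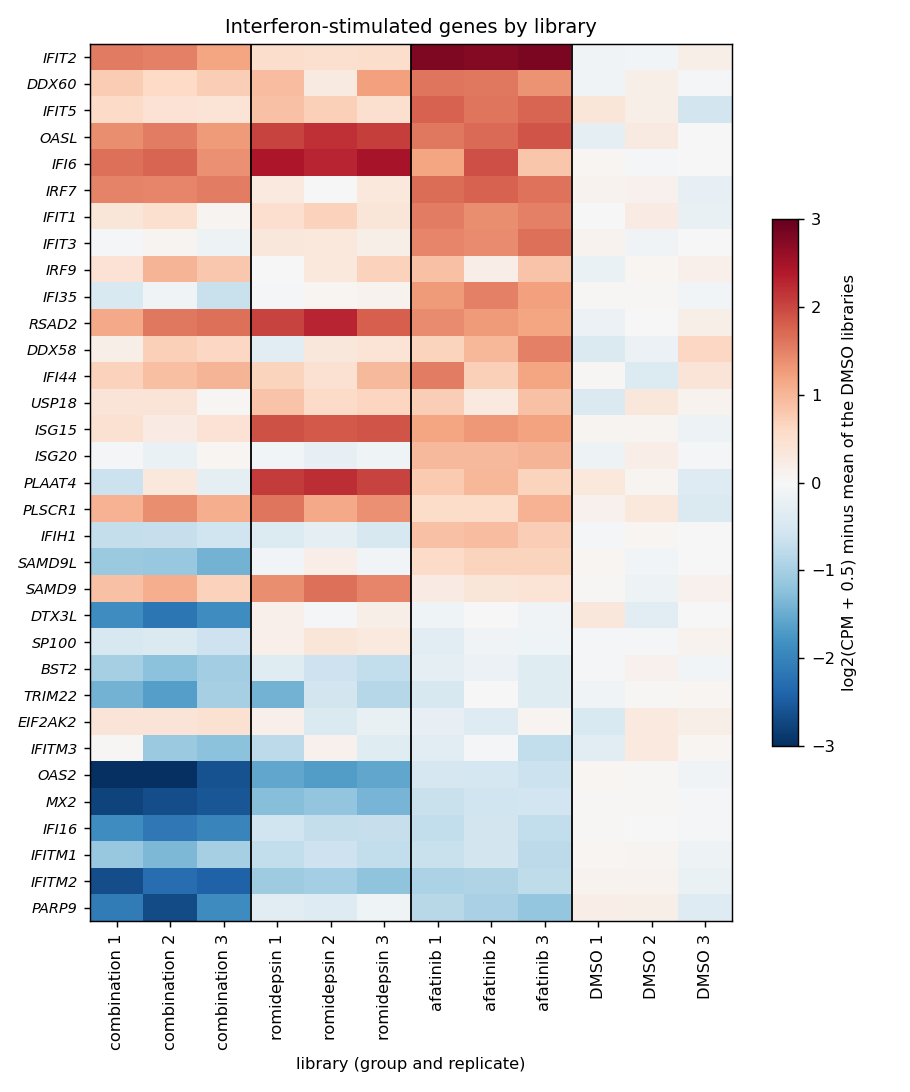
Level of each of the 33 tested interferon-stimulated genes in each of the 12 libraries, as log2(CPM + 0.5) minus the mean of the DMSO libraries (red higher, blue lower, with the colour scale ending at -3 and 3). Genes are ordered by their change with afatinib. The upper genes are red under afatinib and paler in the combination, and most of the lowest genes are blue under each drug and darkest in the combination.

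The drugs moved the program in both directions. With afatinib, edgeR called 19 of the 33 tested genes higher and 7 lower at an adjusted p under 0.05, where 22.0% of all tested genes were higher and 23.3% lower, 45.4% in all. The median log2 fold change was 0.92 over these 33 genes and 0.0016 over all tested genes. Scaling by library size alone gave 19 higher and 6 lower among the 33 genes, and over all genes it raised the share of higher calls to 62.2%, against 48.6% with TMM factors. With romidepsin, 14 were higher and 8 lower, where 31.1% of all tested genes were higher and 31.5% lower, so that the 66.7% of these genes that were called lay near the 62.6% over all genes. With the combination, 11 were higher and 13 lower, where 37.2% of all tested genes were higher and 37.1% lower, so that the 72.7% of these genes that were called lay near the 74.3% over all genes. The median log2 fold change was 0.23 with romidepsin and -0.04 with the combination. All 3 comparisons share the DMSO libraries. Without the libraries with KRT5 counts, and so against DMSO replicate 3 alone, the tested genes divided into 16 higher and 5 lower with afatinib, 11 and 8 with romidepsin, and 9 and 13 with the combination.

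By direction, 9 genes were higher in all 3 comparisons with DMSO, namely IFIT2, ISG15, OASL, RSAD2, IFI6, IFI44, DDX60, SAMD9 and PLSCR1. A further 6 genes were lower in all 3, namely OAS2, MX2, IFI16, BST2, IFITM1 and IFITM2. IFIT1, IFIT3, IFIT5 and PLAAT4 were higher with each drug alone and were not called in the combination. IFI35 and SAMD9L were higher with afatinib and lower in the combination, and IFIH1 was higher with afatinib and lower with romidepsin and in the combination. USP18, EIF2AK2 and IFITM3 were called in none of the 3. The share of all tested genes with each of these patterns was not counted, so the counts do not set these genes apart.

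**Figure D2:**
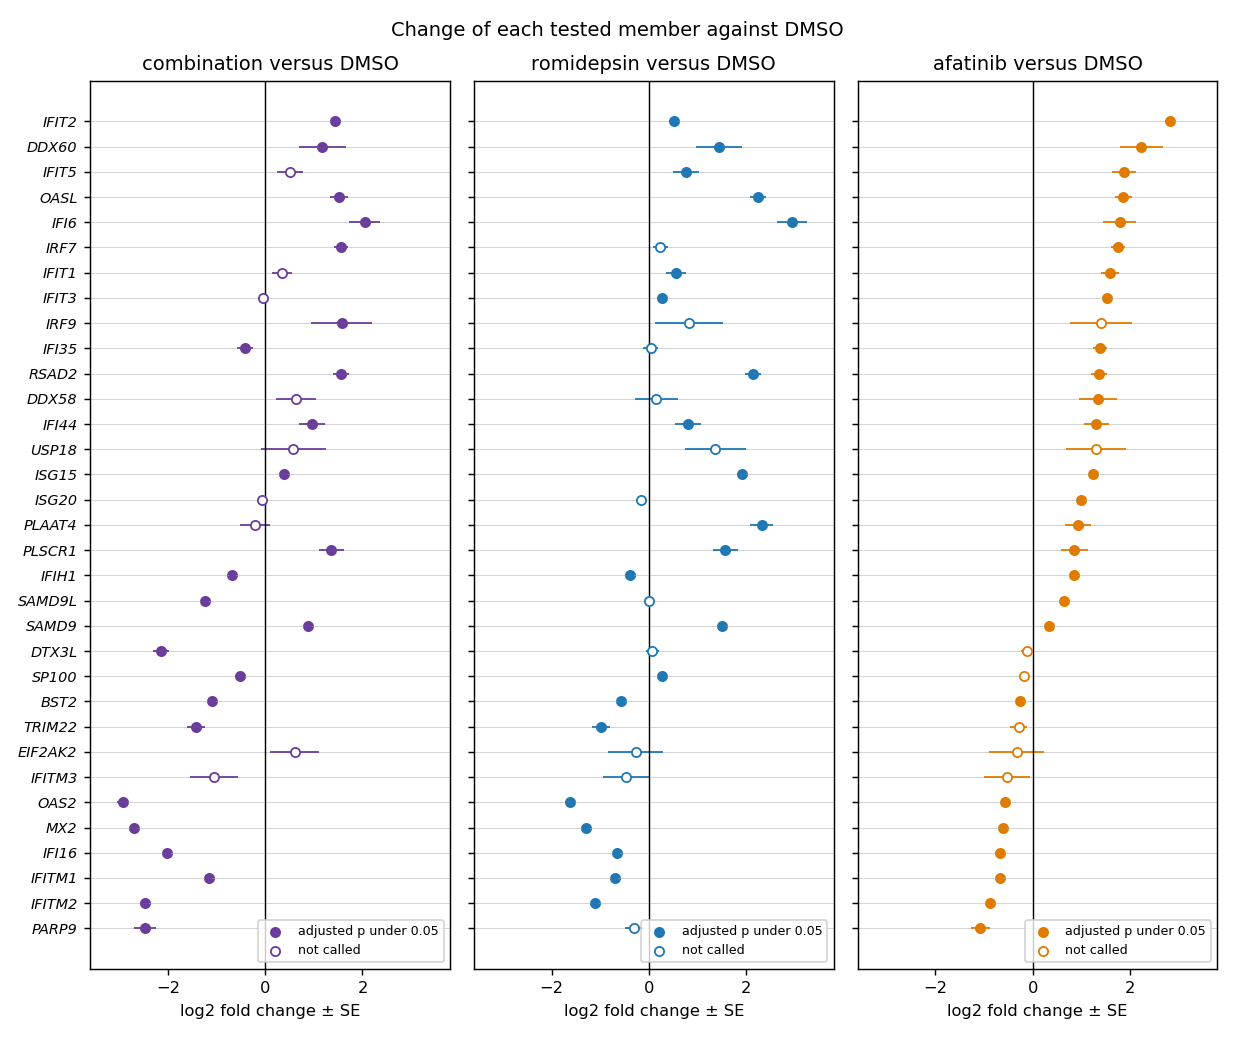
Log2 fold change against DMSO (points) with its SE (lines) for each tested interferon-stimulated gene in the combination, with romidepsin and with afatinib, ordered by the change with afatinib. Filled points have an edgeR adjusted p below 0.05. Afatinib changes run from 2.82 for IFIT2 to -1.07 for PARP9, and the combination column reaches -2.93 for OAS2.

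The IFIT genes encode proteins that bind viral RNA and keep it from being translated. They lie together on chromosome 10 in the order IFIT2, IFIT3, IFIT1 and IFIT5, with 18.7, 51.6 and 8.08 kb between neighbours, and all 4 had their highest level with afatinib. IFIT2 (chromosome 10, 89283694 to 89309271, plus strand) had 57.8, 56.5 and 45.0 CPM in the combination, 28.2, 27.4 and 28.0 with romidepsin, 138, 133 and 141 with afatinib, and 18.1, 18.3 and 22.0 in DMSO. The 4 groups did not overlap, and afatinib stood above the combination, romidepsin and DMSO in that order. The log2 fold change of IFIT2 was 2.82 with afatinib (SE 0.09, edgeR adjusted p = 4.68e-30), the largest rise with afatinib among the tested genes of the program, 0.52 with romidepsin (SE 0.10, edgeR adjusted p = 1.49e-05) and 1.44 in the combination (SE 0.09, edgeR adjusted p = 3.77e-19). IFIT3 (chromosome 10, 89327997 to 89340971, plus strand) had 24.0, 26.1 and 22.0 CPM in the combination, 31.1, 30.5 and 27.8 with romidepsin, 68.4, 66.9 and 78.1 with afatinib, and 26.4, 22.7 and 24.7 in DMSO. All afatinib libraries were highest, and the combination overlapped DMSO. IFIT3 rose by 1.53 with afatinib on the log2 scale (SE 0.09, edgeR adjusted p = 2.76e-19), and the combination was not called against DMSO (-0.04, SE 0.10, edgeR adjusted p = 0.74).

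IFIT1 (chromosome 10, 89392546 to 89406487, plus strand) had 4.87, 5.35 and 3.97 CPM in the combination, 5.41, 6.3 and 4.89 with romidepsin, 11.6, 10.6 and 11.4 with afatinib, and 3.67, 4.44 and 3.07 in DMSO. Again only afatinib stood clear of the rest, with a log2 fold change of 1.60 (SE 0.19, edgeR adjusted p = 6.72e-10). IFIT5, the member with the lowest level in DMSO, averaged 2.83 ± 0.208 CPM in the combination, 3.39 ± 0.508 with romidepsin, 7.31 ± 0.437 with afatinib and 1.98 ± 0.752 in DMSO (SD, n = 3 libraries). Its log2 fold change was 1.88 with afatinib and 0.51 in the combination, which was called only without DMSO replicate 1 (0.82, adjusted p = 0.019), without the libraries with KRT5 counts (1.31, adjusted p = 0.0112) or with library size scaling (0.61, adjusted p = 0.0405). The small rises of IFIT1, IFIT3 and IFIT5 with romidepsin were close to the threshold and lost their calls when certain libraries were left out. That of IFIT1 (0.57, edgeR adjusted p = 0.0146) was not called without romidepsin replicate 2 (0.48, adjusted p = 0.0681) or DMSO replicate 3 (0.44, adjusted p = 0.0847). That of IFIT3 (0.27, edgeR adjusted p = 0.0148) was lost without romidepsin replicate 1 (0.24, adjusted p = 0.0627), DMSO replicate 2 (0.22, adjusted p = 0.0764) or the libraries with KRT5 counts (0.31, adjusted p = 0.0593), and that of IFIT5 (0.77, edgeR adjusted p = 0.0122) without romidepsin replicate 1 (0.65, adjusted p = 0.0647) or DMSO replicate 3 (0.48, adjusted p = 0.128).

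Among the other antiviral effectors, ISG15, OASL, RSAD2 and IFI6 had their highest level with romidepsin alone. ISG15 (chromosome 1, 1001138 to 1014540, plus strand) had 32.5, 28.3 and 32.2 CPM in the combination, 90.6, 86.4 and 89.4 with romidepsin, 54.5, 59.2 and 55.5 with afatinib, and 24.9, 25.0 and 21.3 in DMSO. The groups did not overlap, and the combination lay close above DMSO and below each single drug. ISG15 rose by 1.90 with romidepsin (SE 0.08, edgeR adjusted p = 5.21e-25), 1.25 with afatinib (SE 0.09, edgeR adjusted p = 6.96e-17) and 0.39 in the combination (SE 0.09, edgeR adjusted p = 0.000183), on the log2 scale. OASL (chromosome 12, 121019111 to 121039242, minus strand) encodes a relative of the oligoadenylate synthetases that supports RNA sensing, and it had 9.83, 10.9 and 9.09 CPM in the combination, 15.6, 17.5 and 16.2 with romidepsin, 11.3, 12.4 and 14 with afatinib, and 2.75, 4.24 and 3.5 in DMSO. Every treated library was above every DMSO library, and the combination was the lowest of the treated groups. The log2 fold changes of OASL were 2.24 with romidepsin (SE 0.17, edgeR adjusted p = 2.9e-16), 1.86 with afatinib (SE 0.17, edgeR adjusted p = 1.39e-12) and 1.52 in the combination (SE 0.18, edgeR adjusted p = 1.4e-10).

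RSAD2 (chromosome 2, 6865806 to 6898239, plus strand) encodes viperin, an enzyme that makes chain-terminating nucleotides. It had 12.3, 17.1 and 17.8 CPM in the combination, 23.5, 28.2 and 19.9 with romidepsin, 15.1, 13.6 and 12.8 with afatinib, and 4.67, 5.35 and 6.13 in DMSO. All treated libraries were above DMSO, and those of the combination and afatinib overlapped. RSAD2 rose by 2.14 with romidepsin on the log2 scale (SE 0.16, edgeR adjusted p = 1.23e-16). IFI6, a small membrane protein with antiviral activity, averaged 3.63 ± 0.515 CPM in the combination, 6.72 ± 0.474 with romidepsin, 3.08 ± 1.47 with afatinib and 0.867 ± 0.0552 in DMSO (SD, n = 3 libraries). Its rise with romidepsin, 2.94 on the log2 scale, was the largest of the program in that comparison, with a wider error than the genes above (SE 0.30, edgeR adjusted p = 5.76e-12). ISG20, an exonuclease that degrades RNA, averaged 46.8 ± 4.36 CPM in the combination, 43.7 ± 2.34 with romidepsin, 97.5 ± 2.23 with afatinib and 49 ± 6.03 in DMSO. It was called against DMSO only with afatinib (log2 fold change 1.00, SE 0.08, edgeR adjusted p = 1.01e-14).

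OAS2 and MX2 were lower in every treatment, unlike OASL, the relative of OAS2. OAS2 (chromosome 12, 112978395 to 113011723, plus strand) makes oligoadenylates that activate RNase L, and it had 6.58, 6.49 and 8.71 CPM in the combination, 18.4, 17.1 and 18.5 with romidepsin, 39.0, 38.6 and 35.4 with afatinib, and 57.6, 57.1 and 51.9 in DMSO. MX2 (chromosome 21, 41361999 to 41409393, plus strand), a GTPase that restricts retroviruses, had 14.4, 15.7 and 16.7 CPM in the combination, 41.9, 44.1 and 38.4 with romidepsin, 63.9, 67.4 and 68.5 with afatinib, and 104, 104 and 96.7 in DMSO. For both genes the 4 groups did not overlap and stood in the same order, with the combination lowest and DMSO highest. The log2 fold change of OAS2 was -2.93 in the combination (SE 0.11, edgeR adjusted p = 3.81e-28), the largest fall among the tested genes of the program, -1.62 with romidepsin (SE 0.10, edgeR adjusted p = 1.19e-19) and -0.56 with afatinib (SE 0.09, edgeR adjusted p = 1.17e-06). The corresponding values of MX2 were -2.70 (SE 0.08), -1.30 (SE 0.08) and -0.61 (SE 0.07), all with edgeR adjusted p of 1.24e-09 or less.

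BST2, IFITM1 and IFITM2, which act at membranes and had the highest basal level, fell as well. IFITM2 (chromosome 11, 307631 to 315272, plus strand) had 18.7, 24.6 and 22.0 CPM in the combination, 58.0, 59.7 and 52.2 with romidepsin, 62.3, 64.5 and 71.2 with afatinib, and 131, 130 and 105 in DMSO. The groups did not overlap, and the log2 fold change was -2.48 in the combination (SE 0.09, edgeR adjusted p = 7.4e-28), -1.11 with romidepsin and -0.88 with afatinib. IFITM1 averaged 83.3 ± 9.59 CPM in the combination, 115 ± 4.56 with romidepsin, 117 ± 8.77 with afatinib and 187 ± 16.9 in DMSO. The single drugs were at about the same level, and the combination was lower again (log2 fold change against DMSO -1.16, SE 0.07, edgeR adjusted p = 3.52e-19). BST2 averaged 115 ± 10 CPM in the combination, 166 ± 23.3 with romidepsin, 204 ± 13.2 with afatinib and 245 ± 18.9 in DMSO. Its fall with afatinib was small (-0.26 on the log2 scale, SE 0.07, edgeR adjusted p = 0.0038) and was lost when scaling used library size alone (-0.17, adjusted p = 0.0642) or when the libraries with KRT5 counts were left out (-0.09, adjusted p = 0.595). IFITM3 had at most 18 counts in a library and was not called against DMSO. Without combination replicate 1 it was lower in the combination (-2.02, edgeR adjusted p = 0.00279), and likewise without DMSO replicate 1 (-1.21, adjusted p = 0.046) or the libraries with KRT5 counts (-2.01, adjusted p = 0.0208). Without those libraries it was also lower in the combination than with romidepsin (-1.53, adjusted p = 0.0457) and than with afatinib (-1.70, adjusted p = 0.0279).

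The sensors of foreign nucleic acid divided. IFIH1, the helicase MDA5 that recognises long double-stranded RNA, averaged 38.7 ± 1.63 CPM in the combination, 47.4 ± 3.64 with romidepsin, 111 ± 7.15 with afatinib and 61.8 ± 2.47 in DMSO. It rose with afatinib (0.85 on the log2 scale, SE 0.07, edgeR adjusted p = 7.68e-14) and fell with romidepsin (-0.39, SE 0.08, edgeR adjusted p = 2.47e-05) and in the combination (-0.67, SE 0.08, edgeR adjusted p = 1.01e-10). DDX58, the related helicase RIG-I, had at most 46 counts in a library and rose with afatinib (1.35, SE 0.39, edgeR adjusted p = 0.00388), but not when afatinib replicate 3 was left out (1.04, adjusted p = 0.0587) or the libraries with KRT5 counts were (0.33, adjusted p = 0.704). DDX60, a helicase that assists RIG-I, had at most 27 counts in a library and rose by 2.24 with afatinib (SE 0.43, edgeR adjusted p = 2.89e-05). Its rise with romidepsin (1.44, edgeR adjusted p = 0.00676) was lost without romidepsin replicate 3 (1.13, adjusted p = 0.0729) or the libraries with KRT5 counts (1.62, adjusted p = 0.0567). Its rise in the combination (1.18, edgeR adjusted p = 0.0243) was lost without combination replicate 1 (1.13, adjusted p = 0.053), combination replicate 3 (1.14, adjusted p = 0.0537), DMSO replicate 1 (1.13, adjusted p = 0.0604), DMSO replicate 3 (1.10, adjusted p = 0.0646) or the libraries with KRT5 counts (1.34, adjusted p = 0.126).

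IFI16 (chromosome 1, 158999968 to 159055155, plus strand), the sensor of DNA, had 27.5, 22.5 and 25.4 CPM in the combination, 66.9, 61.8 and 62.7 with romidepsin, 60.8, 69.0 and 60.8 with afatinib, and 104, 102 and 97.2 in DMSO. The single drugs overlapped each other, while all combination libraries were below them and all DMSO libraries above. IFI16 fell by 2.01 in the combination (SE 0.08, edgeR adjusted p = 3.94e-27), 0.66 with romidepsin (SE 0.07) and 0.67 with afatinib (SE 0.07), on the log2 scale. EIF2AK2 averaged 1.02 ± 0.0445 CPM in the combination, 0.535 ± 0.218 with romidepsin, 0.521 ± 0.18 with afatinib and 0.677 ± 0.303 in DMSO, and no difference was called at this depth.

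The regulators of the pathway itself were mostly near the detection limit, with the exception of IRF7, a transcription factor that drives interferon genes. IRF7 (chromosome 11, 612553 to 615983, minus strand) had 18.9, 18.6 and 19.7 CPM in the combination, 7.99, 6.42 and 8.16 with romidepsin, 21.6, 23.2 and 21.0 with afatinib, and 7.0, 7.07 and 5.34 in DMSO. The combination and afatinib lay above the other groups without overlap, and romidepsin overlapped DMSO. The log2 fold change was 1.76 with afatinib (SE 0.14, edgeR adjusted p = 7.05e-15), 1.56 in the combination (SE 0.14, edgeR adjusted p = 4.83e-14) and 0.23 with romidepsin (SE 0.16, edgeR adjusted p = 0.206). IRF9, the DNA-binding partner of STAT proteins at the response element, had at most 14 counts in a library. It was called only in the combination against DMSO (1.57, SE 0.62, edgeR adjusted p = 0.0212), and not without combination replicate 2 (1.33, adjusted p = 0.101), DMSO replicate 1 (1.36, adjusted p = 0.0825) or the libraries with KRT5 counts (1.49, adjusted p = 0.184). Without afatinib replicate 2 it was also called with afatinib (1.70, adjusted p = 0.0437). USP18, which removes ISG15 and dampens the receptor, had at most 12 counts and was called in none of the comparisons. Without DMSO replicate 2 it was called with romidepsin (1.84, edgeR adjusted p = 0.0367).

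SAMD9 and SAMD9L, which restrict poxviruses and slow cell growth, lie 12 kb apart on chromosome 7 and behaved differently. SAMD9 (chromosome 7, 93099513 to 93118023, minus strand) had 151, 175 and 133 CPM in the combination, 217, 259 and 228 with romidepsin, 97.9, 107 and 109 with afatinib, and 85.0, 73.7 and 89.7 in DMSO. SAMD9L (chromosome 7, 93130056 to 93148385, minus strand) had 26.4, 26 and 21.5 CPM in the combination, 54.7, 66.7 and 54.7 with romidepsin, 86.7, 91.9 and 92.2 with afatinib, and 60.7, 54.4 and 58.8 in DMSO. SAMD9 was highest with romidepsin and its groups did not overlap, whereas SAMD9L was highest with afatinib, overlapped between romidepsin and DMSO, and was lowest in the combination. The log2 fold change of SAMD9 was 0.88 in the combination (SE 0.08, edgeR adjusted p = 4.09e-12), 1.5 with romidepsin (SE 0.08, edgeR adjusted p = 2.77e-18) and 0.34 with afatinib (SE 0.08, edgeR adjusted p = 0.000991). The last was lost without the libraries with KRT5 counts (0.23, adjusted p = 0.169). The log2 fold change of SAMD9L was -1.24 in the combination (SE 0.09, edgeR adjusted p = 1.83e-17), 0.01 with romidepsin (SE 0.08, edgeR adjusted p = 0.925) and 0.64 with afatinib (SE 0.08, edgeR adjusted p = 3.71e-09).

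PARP9 and DTX3L encode partners in 1 enzyme complex that ubiquitinates and ADP-ribosylates its targets. Their genes lie head to head on chromosome 3 and overlap by 240 bases. PARP9 (122527924 to 122564577, minus strand) had 1.98, 1.15 and 2.37 CPM in the combination, 7.99, 7.56 and 9.22 with romidepsin, 5.44, 4.92 and 4.26 with afatinib, and 11.7, 11.5 and 7.53 in DMSO. DTX3L (122564338 to 122575203, plus strand) had 4.06, 3.21 and 4.05 CPM in the combination, 18, 15.7 and 18.4 with romidepsin, 14.8, 16.3 and 14.9 with afatinib, and 20.6, 12.8 and 15.9 in DMSO. The combination libraries of both genes were far below the rest. For DTX3L both single drugs overlapped DMSO. For PARP9 romidepsin overlapped DMSO, and afatinib lay below both. In the combination, PARP9 fell by 2.48 (SE 0.22, edgeR adjusted p = 6.74e-14) and DTX3L by 2.14 (SE 0.17, edgeR adjusted p = 4.6e-16), on the log2 scale. With afatinib alone PARP9 fell by 1.07 (SE 0.20, edgeR adjusted p = 1.01e-05), a call that was lost without the libraries with KRT5 counts (-0.50, adjusted p = 0.224). With romidepsin alone PARP9 was not called (-0.30, edgeR adjusted p = 0.148), but it was without DMSO replicate 3 (-0.48, adjusted p = 0.0237). DTX3L was called with neither single drug.

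The remaining tested genes were IFI35, IFI44, PLAAT4, PLSCR1, SP100 and TRIM22. IFI35 (chromosome 17, 43006725 to 43014456, plus strand), a partner of the regulator NMI, had 6.76, 8.71 and 5.81 CPM in the combination, 9.11, 9.97 and 10.2 with romidepsin, 23.8, 27.8 and 23.0 with afatinib, and 9.75, 9.79 and 8.94 in DMSO. Afatinib stood above all other groups (log2 fold change 1.39, SE 0.14, edgeR adjusted p = 6.18e-12), with the combination just below DMSO (-0.42, SE 0.16, edgeR adjusted p = 0.015). The call in the combination was lost without combination replicate 3 (-0.29, adjusted p = 0.124), without DMSO replicate 1 (-0.34, adjusted p = 0.0815), without the libraries with KRT5 counts (-0.23, adjusted p = 0.423) and with library size scaling (-0.31, adjusted p = 0.0664). PLAAT4, a phospholipid-modifying enzyme also known as a retinoid-induced gene, averaged 1.74 ± 0.779 CPM in the combination, 10.3 ± 0.694 with romidepsin, 3.89 ± 0.508 with afatinib and 2.04 ± 0.596 in DMSO. It rose by 2.32 with romidepsin (SE 0.24, edgeR adjusted p = 4.35e-12) and 0.92 with afatinib, on the log2 scale, and the combination overlapped DMSO.

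PLSCR1, a phospholipid scramblase with antiviral activity, averaged 4.85 ± 0.763 CPM in the combination, 5.62 ± 0.961 with romidepsin, 3.41 ± 0.805 with afatinib and 1.91 ± 0.617 in DMSO. It was called higher in all 3 comparisons with DMSO. The call with afatinib (0.85, edgeR adjusted p = 0.00945) was lost without afatinib replicate 3 (0.64, adjusted p = 0.0985) or DMSO replicate 3 (0.61, adjusted p = 0.0829). IFI44 averaged 4.16 ± 0.528 CPM in the combination, 3.66 ± 0.763 with romidepsin, 5.27 ± 1.56 with afatinib and 2.1 ± 0.695 in DMSO. Its rise with romidepsin (0.80, edgeR adjusted p = 0.0103) was lost without romidepsin replicate 3 (0.63, adjusted p = 0.0846) or DMSO replicate 2 (0.60, adjusted p = 0.0677), and none of its rises against DMSO was called without the libraries with KRT5 counts (0.73 in the combination, adjusted p = 0.0902, 0.45 with romidepsin, adjusted p = 0.323, and 0.94 with afatinib, adjusted p = 0.0607). SP100, a nuclear body protein, averaged 22 ± 1.53 CPM in the combination, 38.2 ± 2.75 with romidepsin, 27.5 ± 2.14 with afatinib and 31.4 ± 1.89 in DMSO. TRIM22, a ubiquitin ligase, averaged 4.23 ± 1.09 CPM in the combination, 5.85 ± 1.81 with romidepsin, 9.32 ± 1.72 with afatinib and 11.4 ± 0.684 in DMSO. Both fell in the combination, by 0.51 for SP100 and 1.42 for TRIM22 on the log2 scale. SP100 rose slightly with romidepsin (0.28), which was not called without the libraries with KRT5 counts (0.23, adjusted p = 0.169).

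**Figure D3:**
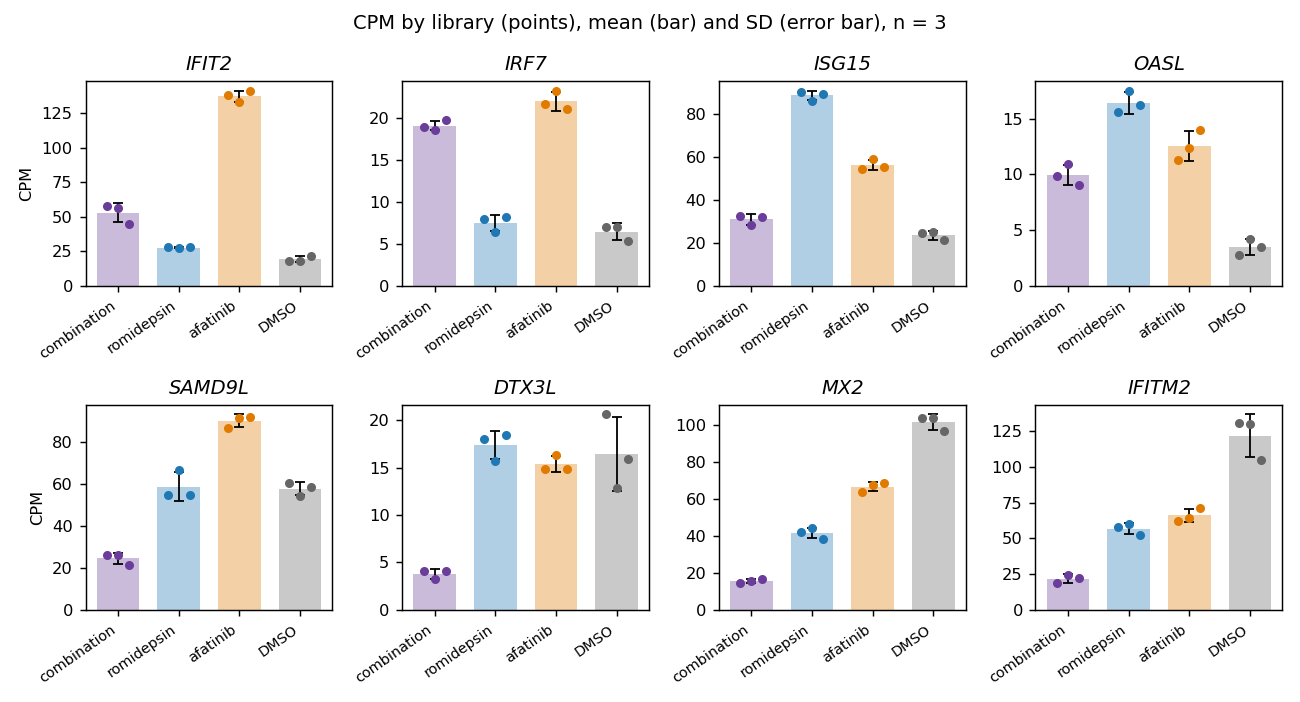
CPM of 8 interferon-stimulated genes in the combination, romidepsin, afatinib and DMSO libraries (points), with group means (bars) and SD (error bars, n = 3). IFIT2 averages 53.1 CPM in the combination and 137 CPM with afatinib, ISG15 averages 31 CPM in the combination and 88.8 CPM with romidepsin, and DTX3L averages 3.77 CPM in the combination and has at least 12.8 CPM in every other library.

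Set against each single drug, the combination was mostly the lower group. Against afatinib, 22 of the 33 tested genes were lower in the combination and 1, SAMD9, was higher, where 35.8% of all tested genes were lower and 33.4% higher, 69.2% in all. Against romidepsin, 19 were lower and 2, IFIT2 and IRF7, were higher, where 29.2% of all tested genes were lower and 25.1% higher, 54.3% in all. The genes lower in the combination than with romidepsin included IFIT3, ISG15, OASL, RSAD2, IFI6, IFI35, IFIH1, SAMD9, SAMD9L and PLAAT4, all of which had been called higher with afatinib than in DMSO. The rise of SAMD9 against afatinib was 0.55 (SE 0.08, edgeR adjusted p = 1.92e-07), that of IFIT2 against romidepsin 0.93 (SE 0.09, edgeR adjusted p = 1.58e-12) and that of IRF7 against romidepsin 1.33 (SE 0.14, edgeR adjusted p = 1.5e-11), on the log2 scale.

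Each of the 116 member results called in these 5 pairwise comparisons had groups without overlap. The share without overlap among all called genes was not computed, so this count does not set these genes apart. Some of the 116 results were close to the threshold. OASL was lower in the combination than with afatinib by 0.34 on the log2 scale (edgeR adjusted p = 0.035), but not with DESeq2 (-0.30, adjusted p = 0.0887) or without combination replicate 1 (-0.33, adjusted p = 0.069), combination replicate 3 (-0.28, adjusted p = 0.128), afatinib replicate 2 (-0.35, adjusted p = 0.054), afatinib replicate 3 (-0.22, adjusted p = 0.253), DMSO replicate 1 (-0.31, adjusted p = 0.0506) or the libraries with KRT5 counts (-0.21, adjusted p = 0.301). The fall of SP100 in the combination against afatinib was also lost without the libraries with KRT5 counts (-0.28, adjusted p = 0.0549). IFI35 was lower in the combination than with romidepsin (-0.46, edgeR adjusted p = 0.0119), but not without combination replicate 3 (-0.33, adjusted p = 0.103) or the libraries with KRT5 counts (-0.40, adjusted p = 0.0604). PLSCR1 was not called higher in the combination than with afatinib (0.50, edgeR adjusted p = 0.0529), but was called without combination replicate 1 (0.57, adjusted p = 0.0453), afatinib replicate 3 (0.76, adjusted p = 0.0123), DMSO replicate 1 (0.53, adjusted p = 0.0395), DMSO replicate 3 (0.49, adjusted p = 0.0439) or the libraries with KRT5 counts (0.83, adjusted p = 0.00844). RSAD2 was called higher in the combination than with afatinib without combination replicate 1 (0.34, adjusted p = 0.0391), and IFI6 without afatinib replicate 2 (0.69, adjusted p = 0.0302). TRIM22 was called lower in the combination than with romidepsin without combination replicate 3 (-0.68, adjusted p = 0.0159) or romidepsin replicate 1 (-0.67, adjusted p = 0.00903).

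If the drugs acted independently on the log scale, the change in the combination would equal the sum of the changes with each drug. The departure from that sum was below 0 for 31 of the 33 tested genes, and the test called 24 below and none above, where 18.5% of all tested genes were called below and 11.7% above, 30.2% in all. The median departure was -1.1 over these 33 genes and -0.06 over all tested genes. DESeq2 also gave 24 below and 0 above. Without the libraries with KRT5 counts edgeR gave 24 and 0, with IFI44 lost and BST2 added. At an unadjusted p under 0.05 edgeR had 27 below and 1 above. The gene above was IFITM1 (0.21, SE 0.10, edgeR adjusted p = 0.113), which was called without combination replicate 2 (0.30, adjusted p = 0.0175) or without DMSO replicate 3 (0.28, adjusted p = 0.032) and was at -0.02 without the libraries with KRT5 counts (adjusted p = 0.951). EIF2AK2 was the other gene with a positive departure (1.21, SE 0.77, edgeR adjusted p = 0.247).

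The lowest departures were those of genes that each drug raised. PLAAT4 had the lowest value, -3.45 (SE 0.36, edgeR adjusted p = 8.35e-11), with 1.74 CPM in the combination where additivity on the log scale gives 19.6 CPM. ISG15 had -2.77 (SE 0.12, edgeR adjusted p = 1.44e-23), with 31 CPM in the combination where additivity gives 211 CPM. IFI6 had -2.69 (SE 0.41, edgeR adjusted p = 9.25e-07) and OASL -2.58 (SE 0.23, edgeR adjusted p = 5.98e-13), with 9.95 CPM for OASL where additivity gives 59.1 CPM. These genes thus stayed far under the sum of the single changes. RSAD2 had -1.94 (SE 0.21, edgeR adjusted p = 4.51e-10) and IFIT2 -1.89 (SE 0.13, edgeR adjusted p = 1.28e-16), with 53.1 CPM for IFIT2 where additivity gives 197 CPM. SAMD9L had -1.89 (SE 0.12, edgeR adjusted p = 1.47e-17), and its 24.6 CPM in the combination was below each single drug and DMSO, where additivity gives 91.4 CPM. DTX3L had -2.10 (SE 0.22, edgeR adjusted p = 1.01e-10), from single-drug changes close to 0. In all 13 genes that were higher with each drug alone, the mean of the combination was below the higher single-drug mean, and in 7 it was below both. The same was not counted over all genes that each drug raised, so these counts do not set the 13 genes apart.

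The departure was also called below 0 for OAS2, MX2, IFI16 and IFITM2 among the 6 genes that each drug lowered, while BST2 and IFITM1 were not called. OAS2 had -0.75 (SE 0.16, edgeR adjusted p = 0.000166), MX2 -0.80 (SE 0.12, edgeR adjusted p = 4.1e-07), IFI16 -0.68 (SE 0.11, edgeR adjusted p = 3.92e-06) and IFITM2 -0.49 (SE 0.13, edgeR adjusted p = 0.0022), all lower in the combination than the sum of the single changes. In all 6 genes that were lower with each drug alone, the mean of the combination was below both single-drug means. This was likewise not counted over all genes that each drug lowered. The departure depends on the scale. When differences in CPM were added instead of log2 changes, 21 of the 24 genes were still below the sum, although IFI16 (-1.04 CPM, SE 4.07) and PARP9 (-1.06 CPM, SE 1.52) lay within their SE of it, and OAS2 (7.14 CPM above, SE 2.33), MX2 (9.13 CPM above, SE 3.35) and IFITM2 (21 CPM above, SE 9.29) turned. The sums were then 0.123 CPM for OAS2, 6.45 CPM for MX2 and 0.762 CPM for IFITM2. Departures that were lost in refits without 1 or more libraries were those of IFI44 (-1.14, edgeR adjusted p = 0.0127, lost without romidepsin replicate 3 at -0.97 and adjusted p = 0.0584, afatinib replicate 1 at -0.91 and adjusted p = 0.065, or the libraries with KRT5 counts at -0.66 and adjusted p = 0.343) and PLSCR1 (-1.07, edgeR adjusted p = 0.0165, lost without romidepsin replicate 1 at -0.94 and adjusted p = 0.0532, afatinib replicate 3 at -0.83 and adjusted p = 0.102, or DMSO replicate 3 at -0.84 and adjusted p = 0.0704). BST2 was just short of the threshold (-0.26, edgeR adjusted p = 0.0614) and was called without combination replicate 1 (-0.31, adjusted p = 0.0371), romidepsin replicate 3 (-0.35, adjusted p = 0.0094), DMSO replicate 2 (-0.33, adjusted p = 0.0132) or the libraries with KRT5 counts (-0.46, adjusted p = 0.0147). USP18 (-2.09, edgeR adjusted p = 0.0542) was called without afatinib replicate 2 (-2.33, adjusted p = 0.0469) or DMSO replicate 2 (-2.57, adjusted p = 0.0397).

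**Figure D4:**
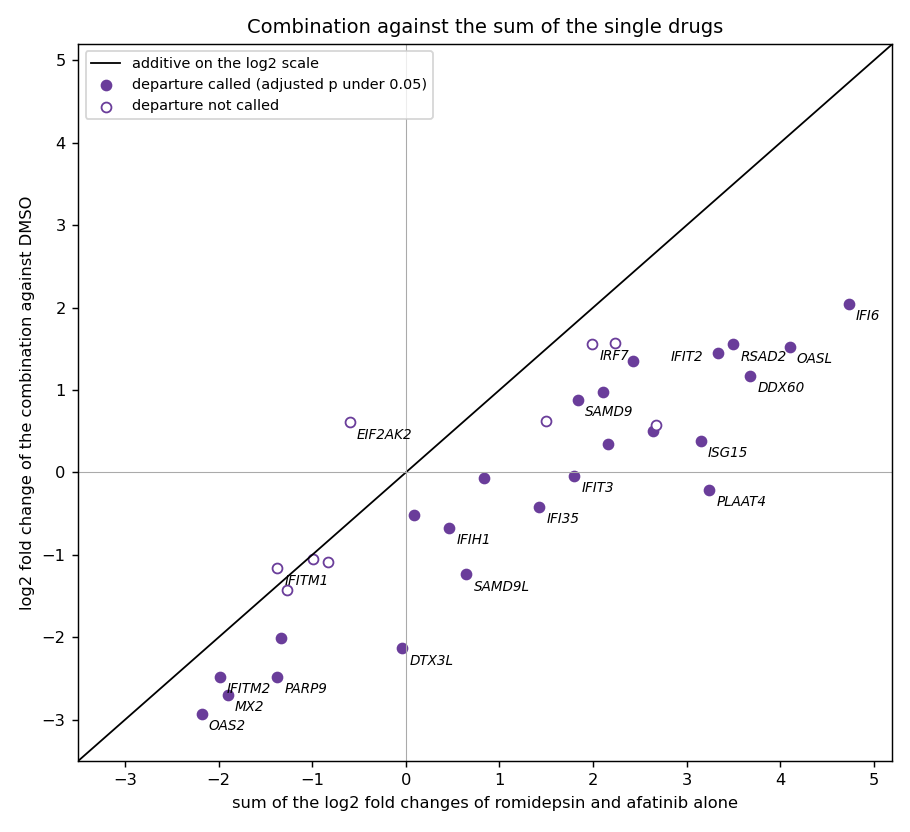
Log2 fold change of the combination against DMSO (vertical axis) and the sum of the log2 fold changes of romidepsin and afatinib alone (horizontal axis), 1 point for each of the 33 tested interferon-stimulated genes. The line marks additivity, filled points have a called departure, and 31 of the 33 points lie below the line.

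The rest of the pathway was described with further gene lists. Over all tested genes, 37.2% were higher and 37.1% lower in the combination, 31.1% and 31.5% with romidepsin, and 22.0% and 23.3% with afatinib, and the counts of these short lists are descriptions beside those shares. Of 21 interferon genes, 17 had no count in any library, and IFNE, IFNK, IFNL1 and IFNG together had 5 counts, at most 1 in a library. Transcripts of interferons were therefore not detectable above 0.229 to 0.344 CPM. Among genes that relay the interferon signal, STAT2 encodes a partner of IRF9. STAT2 had 142, 139 and 137 CPM in the combination, 94.8, 101 and 95.0 with romidepsin, 34.0, 29.5 and 31.1 with afatinib, and 39.2, 37.9 and 41.6 in DMSO. The groups did not overlap, and the combination stood above each single drug. The departure of STAT2 from additivity was 0.85 (SE 0.10, edgeR adjusted p = 4.92e-09). IFNAR1, a chain of the type I receptor, fell by 0.81 in the combination, and IFNGR1, a chain of the type II receptor, rose by 1.47, on the log2 scale.

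Of 18 sensors and adaptors, 14 were tested. In the combination 4 were higher and 9 lower, with romidepsin 2 and 9, and with afatinib 6 and 4. DHX58, the third helicase of the RIG-I family, rose by 1.34 with afatinib and fell by 0.42 in the combination, on the log2 scale, as IFIH1 did, and TLR7 rose by 1.30 with afatinib and fell by 0.76 in the combination. AIM2, a sensor of DNA like IFI16, fell by 3.12 in the combination and by 0.39 with afatinib, and ADAR, an RNA-editing enzyme induced by interferon, fell by 1.63 and 0.53. NLRC5, an activator of class I antigen presentation genes, rose by 1.08 in the combination. Of 5 tested members among 7 other interferon regulatory factors, 2 were higher and 1 lower in the combination, with 1.66 for IRF4, 0.64 for IRF1 and -2.47 for IRF5 on the log2 scale. Among 7 negative regulators, 3 were higher and 3 lower in the combination. SOCS3 rose by 2.35 and SOCS1 by 0.93, while the phosphatase PTPN6 fell by 3.24. Of 9 tested guanylate-binding and APOL genes, which interferon also induces, 3 were higher and 6 lower in the combination, with log2 fold changes of 2.94 for GBP2, 1.45 for GBP5, -2.05 for APOL2 and -1.97 for APOL3. Departures from additivity were 1 above and 6 below among sensors, 2 and 1 among regulatory factors, 2 and 3 among negative regulators, and 0 and 5 among guanylate-binding and APOL genes, where 11.7% of all tested genes were called above and 18.5% below.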

How the data were processed

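Gene-level whole-number counts of read pairs, under gene names of GENCODE 31, were deposited by the authors, who ran featureCounts 2.0.0 on paired reads without multi-mapping reads and with no strand setting, per the file headers. STAR 2.7.9a, DESeq2 1.38.1 and the build GRCh38.p12 appear in the submitters' processing notes. No source used here names the library kit or its strand, so reads from overlapping genes are not told apart. Coordinates are those of the count table. Another table, called normalized counts, was left out because its values do not follow the counts.

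The treatment labels gave 4 groups of 3 libraries. After filterByExpr, 16208 genes remained, with TMM scaling. CPM refers to the TMM-scaled total of these genes, and CPM per kb divides it by the deposited exon length. Tests used edgeR 4.0.16 under R 4.3.3 (robust glmQLFit, then glmQLFTest) with 1 model of the 4 group means for the 12 libraries, which had a biological coefficient of variation of 6.13%. They are two-sided, and Benjamini-Hochberg adjustment ran over the 16208 genes, with calls at an adjusted p under 0.05. There were 6 comparisons, 3 against DMSO, 2 of the combination with a single drug, and the departure (log2 change of the combination minus both single-drug changes). The fit was also run on simulated counts drawn with its own estimates of spread and with few changed genes. Such counts cannot show whether the scaling suits these libraries, and no result here rests on them. Libraries of a group differed by more than sampling noise.

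The members, gene lists, markers and tests were chosen with earlier results of these data known. Values in every library are given for the 6 genes with the largest absolute log2 change in each treatment against DMSO and in the departure. These were picked among called genes averaging at least 5 CPM. Called genes named from the other lists also average at least 5 CPM, but they are examples and not always the largest changes. GBP4 (-1.67) and IKBKE (-1.48) in the combination against DMSO, on the log2 scale, are among those not named above. Counts over the list of receptor, JAK and STAT genes are not reported here. Alternatives were RLE factors, library size only, no filter, at least 1 CPM in 3 libraries, DESeq2 1.42.0, only the groups compared, the replicate number as a block, each library left out in turn, and the libraries with at least 10 KRT5 counts left out.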

Additional observations from a re-analysis of the deposited data

Results flagged for a closer look

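In 10 genes the effect of afatinib was called in opposite directions without and with romidepsin, and the departure from additivity was called. The departure is the difference between these effects. Its call was part of the rule that picked the 10 genes, so it is no separate evidence. How many of all tested genes meet this rule was not counted. With minus without romidepsin, the difference on the log2 scale was -3.45 for PLAAT4 (-2.53 with and 0.92 without romidepsin), -2.77 for ISG15 (-1.52 with and 1.25 without) and -2.69 for IFI6 (-0.89 with and 1.79 without). It was -2.58 for OASL (-0.72 with and 1.86 without), -1.94 for RSAD2 (-0.58 with and 1.36 without) and -1.89 for SAMD9L (-1.25 with and 0.64 without). It was -1.84 for IFI35 (-0.46 with and 1.39 without), -1.84 for IFIT3 (-0.31 with and 1.53 without), -1.14 for IFIH1 (-0.29 with and 0.85 without) and -0.95 for SAMD9 (-0.62 with and 0.34 without). The effect with romidepsin was not called for IFIT3 when scaling used library size alone (-0.22, edgeR adjusted p = 0.0527), nor for IFI35 without combination replicate 3 (-0.33, edgeR adjusted p = 0.103) or the libraries with KRT5 counts (-0.40, edgeR adjusted p = 0.0604), and the effect without romidepsin was not called for SAMD9 without the libraries with KRT5 counts (0.23, edgeR adjusted p = 0.169). The same DMSO, romidepsin and afatinib libraries enter all 10 differences.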

How the results depend on the processing

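Of 140 called results of single genes, 126 were kept in every fit that left out 1 library, and none changed direction in a refitted alternative. The departures of OAS2, MX2 and IFITM2 turned to 7.14, 9.13 and 21 CPM above the sum when differences in CPM were added. Leaving out each library gave 17 to 20 genes higher and 7 lower with afatinib, 12 to 15 and 8 to 9 with romidepsin, 10 to 11 and 12 to 14 with the combination, 1 to 3 and 21 to 23 for the combination against afatinib, 2 and 19 to 21 for the combination against romidepsin, and 0 to 1 and 23 to 26 for the departure. The count of genes higher in the combination than with afatinib, 1 here, was 2 with RLE factors, with only the groups of the contrast and without the libraries with KRT5 counts. It was 3 without combination replicate 1 and 2 without afatinib replicate 2, afatinib replicate 3, DMSO replicate 1 or DMSO replicate 3. The departure had 1 gene above without combination replicate 2 or DMSO replicate 3. Over all genes, afatinib had 2164 higher and 1998 lower without the libraries with KRT5 counts, against 3571 and 3780, with 8 libraries in the fit, 1 of them DMSO. Library size scaling moved the median of all genes by 0.10 in the combination against DMSO. With no filter on low counts, 9 of these genes were higher in the combination against DMSO, where the main fit had 11. DDX60 (1.16, edgeR adjusted p = 0.055) and IRF9 (1.55, edgeR adjusted p = 0.0548) lost their calls. IFIT3 with romidepsin (0.24, edgeR adjusted p = 0.0542) and OASL in the combination against afatinib (-0.33, edgeR adjusted p = 0.0775) lost theirs too. RLE factors also lost that of OASL (-0.30, edgeR adjusted p = 0.0633). With the replicate block, the departure had 25 genes below, BST2 being added at -0.26, and no other call changed. Same-numbered libraries of 2 groups correlated at -0.09 to 0.09 after removal of the group means (18 pairs), so the numbers were not taken to pair libraries. Depth limits the 11 tested genes under 5 CPM and the 10 not tested.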
